A study of Piaractus mesopotamicus with 9 samples.

Results

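Amino acids were returned to amino acid-starved muscle cells of the pacu, a South American freshwater fish, and the messenger RNA of these cells (AA group) was compared with that of cells kept without amino acids (CTR group). The comparison takes in every gene name carried by a contig, that is an assembled transcript, whose raw counts averaged at least 10 over all libraries, and the contig with the highest mean normalized count stands for each name. This gave 13162 genes on 35575 tested contigs, out of 19365 names on 69932 contigs. The libraries are 3 of AA and 3 of CTR, out of 9 in the series, and the other 3 are those of cells given recombinant IGF1 in place of amino acids (IGF1 group). Myoblasts were taken from the fast-twitch epaxial muscle of juvenile fish, with the cells of several animals pooled in each culture, and on day 8 of culture all groups were put into a salt solution with glucose and vitamins but no amino acids. After 12 h, AA cells were moved to DMEM, which holds amino acids, for 24 h, IGF1 cells received gilthead sea bream IGF1 in the amino acid-free solution for 24 h, and CTR cells stayed in that solution for 36 h in all. Labels give 24 h in the protocol but 12 h in the treatment field of AA, and 24 h is used here, as in the methods of the study. AA and CTR media differed in small ways besides the amino acids, so the effect of the amino acids and that of these other components cannot be told apart. The study had 3 independent cultures, but no source used here says which library comes from which culture, and p-values measure only the spread between these libraries.

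As background, amino acids are both the building blocks of protein and a signal. When they are short, uncharged transfer RNA activates the kinase GCN2, the translation of ATF4 goes up, and ATF4 switches on genes for amino acid uptake, synthesis and stress. When they are plentiful, mTORC1 on the lysosome promotes translation, lipid synthesis and growth, and restrains autophagy. Myotubes are the fused, postmitotic cells that myoblasts form on differentiation, and they build sarcomeres, in which thick myosin filaments and thin actin filaments are anchored between Z discs and spanned by titin. A culture of muscle cells also holds unfused myoblasts and fibroblasts, which can divide.

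Library totals differed widely, from 1366043 raw counts in AA replicate 3 to 53525876 in an IGF1 library. In AA replicate 3, 1 raw count equals 7.03 normalized counts, and 15.1% of its tested contigs were at 0. Normalized counts here are the deposited ones, corrected for the depth of each library but not for the length of each contig, so levels of different genes are not compared. Of 10 myotube marker names fixed for this report, 9 had a tested contig, among them myog, mymk, desma, ttn.1, ckma and ckmb, and their summed level was 1798 to 2180 normalized counts in CTR and 2840 to 4387 in AA, without overlap. ACTA1, an alpha actin in that list, was not called, with a log2 fold-change of −0.26. Fibroblast markers, 9 of 11 with a tested contig and mainly collagen type I chains, summed to 190085 to 204744 in CTR and 181760 to 205664 in AA. Endothelial markers, 5 of 10 tested, summed to 318 to 326 in CTR and 218 to 434 in AA, and the 2 immune markers with a tested contig to 31.3 to 52.0 in CTR and 41.9 to 67.7 in AA. Among the fibroblast markers postnb rose, while prrx1a and twist1a fell, the latter not without AA replicate 1 (log2 fold-change −1.14, adjusted p = 0.0566). Glial and neural markers summed to 35.8 to 57.3 in CTR and 21.1 to 36.5 in AA, with 2 of 8 tested, and none of the 7 red cell markers had a tested contig. The part of any of these cell types in the results was not tested. In these bulk libraries, fewer cells of a type and less RNA per cell cannot be told apart.

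In AA compared to CTR, 916 of the 13162 genes were differentially expressed (6.96%), that is, changed by a factor of 2 or more with an adjusted p not above 0.05 in edgeR's quasi-likelihood test. Of these, 534 were up-regulated (4.06% of all genes) and 382 were down-regulated (2.90%). The counts called in every list below are to be read against these shares. The median log2 fold-change was 0.03 over all genes, 1.59 over the up-regulated and −1.37 over the down-regulated genes. A change of more than 4-fold was found for 161 up-regulated and 76 down-regulated genes. Without AA replicate 3, the shallowest library, 556 genes were up-regulated and 378 down-regulated. With no normalization beyond library size, which moves the median log2 fold-change of all genes to 0.17, the up-regulated share went from 58.3% to 74.0% (744 up-regulated and 262 down-regulated), so the balance of the directions depends on the scaling. All 3 AA libraries lay above all 3 CTR libraries for 16.6% of all genes and below them for 16.0%. Many genes are carried by several contigs, and among the up-regulated genes with other tested contigs, all of these moved the same way in 274 of 288 genes. The same held for 244 of 270 down-regulated genes. Wherever a list below has no call in a direction in AA against CTR, DESeq2's Wald test called none in that direction either. The 916 names come from 877 assembled loci, since 71 of them share a locus with another called name, such as tfr1a and tfr1b.

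Among genes with a group mean of 100 or more normalized counts and no overlap between AA and CTR, the largest rise was that of tmsb, a thymosin beta gene whose product binds actin monomers. Its normalized counts were 1.61, 1.46 and 4.597 in CTR and 104, 152 and 176 in AA (log2 fold-change 5.53, SE 0.51, adjusted p = 7.5e-07). Its AA libraries stood far above CTR. The next was kpna2, an importin alpha that carries proteins into the nucleus and is abundant in dividing cells, with 6.43, 12.4 and 12.7 in CTR and 138, 128 and 211 in AA (log2 fold-change 3.78, SE 0.38, adjusted p = 2.31e-06). Of the other 10 of the 12 largest rises, 3 were muscle filament genes, 1 was the titin gene ttn.1 and 1 was smc2 of condensin, all described below. Outside these groups stood abi3bpb, a matrix protein gene, with 51.4, 83.95 and 66.5 in CTR and 368, 813 and 626 in AA (log2 fold-change 3.16, SE 0.26, adjusted p = 1.84e-07). The glutathione S-transferase Mu 3 gene, an enzyme that conjugates glutathione, rose by 2.95 on the log2 scale, multiple EGF like domains 6 by 2.84 (with 2 of its 4 other contigs higher in AA), inhibitor of DNA binding 1, an inhibitor of differentiation factors, by 2.82, and cd248b, a mesenchymal surface protein gene, by 2.73.

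Among the falls, the interleukin-1 receptor type 2-like gene led. In mammals this receptor is a decoy that takes up interleukin-1 without signalling. It had 176, 263 and 300.2 in CTR and 10.6, 17.6 and 14.1 in AA (log2 fold-change −4.01, SE 0.33, adjusted p = 2.08e-07), and AA replicate 3 held 2 raw counts of it. The tumor necrosis factor receptor superfamily member 6B-like gene had 456, 380.3 and 438 in CTR and 104, 52.1 and 28.1 in AA (log2 fold-change −2.699, SE 0.29, adjusted p = 6.54e-06). For both genes every AA library lay below every CTR library. Other large falls were those of ctdsp2, a small phosphatase (−2.39), thbs1b, a thrombospondin (−2.32), and tuft1a (−2.21), while sat1a.2, ARRDC4, slc38a5b, bhlhe41, lepb and irf7 are described with their groups.

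**Figure D1:**
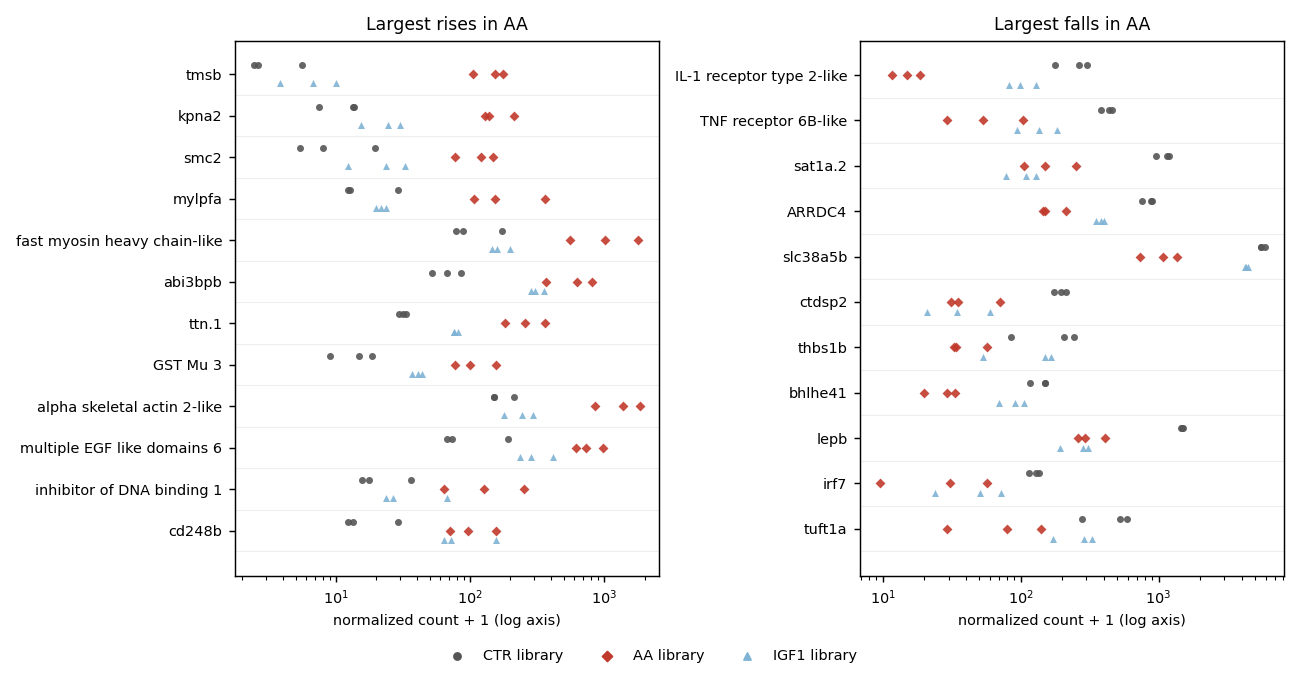
Normalized count plus 1 (log axis) in every library for 12 of the largest rises (left) and 11 of the largest falls (right) in AA, with 1 point per library and IGF1 libraries shown beside the CTR and AA ones. In each of these 23 genes the 3 AA libraries lie apart from the 3 CTR libraries, as the choice of the genes required.

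The smallest adjusted p among named rises was that of tubb5, a beta tubulin, with 139, 129 and 129 in CTR and 688, 989 and 899.9 in AA (log2 fold-change 2.68, SE 0.18, adjusted p = 2.17e-08). mylka, the myosin light chain kinase, was also among the 5 smallest, with 384, 354 and 347 in CTR and 1441, 1236 and 1111 in AA (log2 fold-change 1.796, SE 0.15, adjusted p = 1.91e-07). The smallest among named falls belonged to the partner keratins of simple epithelia, krt8 and krt18a.1. The level of krt8 was 31146, 32303 and 32417 in CTR and 10830.1, 11146 and 10932 in AA (log2 fold-change −1.56, SE 0.08, adjusted p = 1.77e-09). That of krt18a.1 was 12734, 13657 and 12758 in CTR and 3892, 3998 and 3684 in AA (log2 fold-change −1.77, SE 0.10, adjusted p = 1.77e-09). Replicates of both keratins lay within a narrow band in each group, and the groups were far apart. No list of epithelial markers was among those summed by cell type, and a part of epithelial cells in these falls was not tested. nfat5b, the factor that responds to osmotic stress, had 2186, 1974 and 2196 in CTR and 546, 464 and 429 in AA (log2 fold-change −2.14, SE 0.15, adjusted p = 3.46e-08). The krt8, krt18a.1 and tubb5 changes were also found against IGF1 (krt8 log2 fold-change −1.42, adjusted p = 2.54e-08, krt18a.1 log2 fold-change −1.52, adjusted p = 2.54e-08, tubb5 log2 fold-change 2.01, adjusted p = 1.08e-06).

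Of 44 tested genes for chromosome segregation, 25 rose in AA and none fell (1 was lower at an unadjusted p under 0.05 in edgeR), with a median log2 fold-change of 2.03, against 4.06% up-regulated and a median of 0.03 over all genes. Spindle motors and regulators, a list that also holds the topoisomerase gene top2a, had 13 of 14 members up-regulated and a median of 2.56. The number up-regulated was 10 without AA replicate 2 or CTR replicate 2, 13 without AA replicate 3 and 7 with all libraries thinned to the depth of the shallowest. top2a, the topoisomerase that untangles chromosomes, had 10.4, 7.300 and 4.24 in CTR and 88.9, 66.3 and 91.4 in AA (log2 fold-change 3.499, SE 0.47, adjusted p = 6.51e-05). tpx2, which activates Aurora A on the spindle, had 10.4, 2.92 and 7.43 in CTR and 104, 59.5 and 84.4 in AA (log2 fold-change 3.52, SE 0.51, adjusted p = 0.000131). anln, the anillin of the contractile ring, had 28.9, 29.9 and 34.7 in CTR and 138, 164 and 239 in AA (log2 fold-change 2.44, SE 0.29, adjusted p = 1.66e-05). For all of them the AA libraries lay above the CTR libraries. The kinesin kif20a of the central spindle rose by 3.07, kif11, which pushes spindle poles apart, by 3.72 and racgap1, a regulator of cytokinesis, by 2.77. Of the listed members of this role only kif4 was not up-regulated (log2 fold-change −0.21, adjusted p = 0.772). Genes outside the segregation list moved both ways. The kinesin KIF2A was down-regulated (log2 fold-change −1.08), and the inner centromere protein gene was up-regulated (2.52).

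The mitotic kinase plk1 had 4.82, 3.65 and 1.77 in CTR and 69.8, 51.4 and 84.4 in AA (log2 fold-change 4.33, SE 0.58, adjusted p = 5.74e-05), and aurkb, the kinase of the chromosomal passenger complex, had 7.23, 10.2 and 8.49 in CTR and 40.2, 45.3 and 42.2 in AA (log2 fold-change 2.29, SE 0.48, adjusted p = 0.00369). AA was above CTR in every library for both. In all, 4 of 8 mitotic kinase and APC/C genes rose (median 2.12), and 2 did without AA replicate 2 or without CTR replicate 3. Condensin, the ring that compacts chromosomes, had 5 of 11 members up-regulated together with cohesin genes (median 1.08). Its core subunit smc2 had 18.5, 4.38 and 7.07 in CTR and 121, 75.7 and 148 in AA (log2 fold-change 3.48, SE 0.49, adjusted p = 0.000105). The condensin subunits ncapd2 (2.398) and ncapg (2.11) rose as well, and the cohesin genes smc3 (1.08) and rad21a (1.02) lay near the 2-fold limit, smc3 below it without AA replicate 3 (log2 fold-change 0.81, adjusted p = 0.0132) and rad21a without AA replicate 1 (log2 fold-change 0.82, adjusted p = 0.0227) or CTR replicate 2 (log2 fold-change 0.93, adjusted p = 0.0198). Kinetochore and checkpoint genes had 3 of 11 members up-regulated (median 1.41), but no member was called without CTR replicate 3, 1 was called without AA replicate 2 or CTR replicate 2, and 5 were called without AA replicate 3. Against IGF1, 10 of the 44 segregation genes were higher in AA and none lower (0 at an unadjusted p under 0.05 in edgeR and 0 in DESeq2), where 2.74% of all genes were higher and 2.02% lower.

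The cyclins that drive cells into mitosis rose as well. The mitotic cyclin ccnb1 had 8.03, 6.57 and 1.77 in CTR and 82.5, 68.3 and 70.3 in AA (log2 fold-change 3.86, SE 0.56, adjusted p = 0.000124), its kinase cdk1 had 18.5, 11.7 and 14.5 in CTR and 106, 98.7 and 70.3 in AA (log2 fold-change 2.66, SE 0.37, adjusted p = 7.97e-05), and the S phase cyclin ccna2 had 19.3, 9.49 and 12.02 in CTR and 61.4, 62.9 and 127 in AA (log2 fold-change 2.49, SE 0.43, adjusted p = 0.000776). None of these groups overlapped. These were 3 of 11 cyclin and CDK genes, and none of the 11 had a log2 fold-change below 0. Against IGF1, all of ccnb1 (log2 fold-change 2.96, adjusted p = 0.00134), cdk1 (log2 fold-change 2.096, adjusted p = 0.000929) and ccna2 (log2 fold-change 1.46, adjusted p = 0.0379) were higher in AA. Among 6 CDK inhibitors and pocket proteins, cdkn1ba, the p27 gene that holds cells out of the cycle, fell, with 551, 389.8 and 414 in CTR and 249.7, 155 and 274 in AA (log2 fold-change −1.097, SE 0.21, adjusted p = 0.00155). Its fall dropped below 2-fold without AA replicate 2 (log2 fold-change −0.83, adjusted p = 0.0228) or CTR replicate 1 (log2 fold-change −0.93, adjusted p = 0.00864). The group as a whole did not fall, with a median of 0.002. At the adjusted p alone, 2 of the 6 were higher and 1 was lower. Without AA replicate 3 or CTR replicate 1, 1 of the 6 was up-regulated.

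Replication genes rose in part. Subunits of the MCM helicase, which opens DNA at origins, made up all 5 up-regulated members of the 30 licensing and fork genes (median 0.55). mcm4 had 12.9, 14.6 and 9.902 in CTR and 121, 50.04 and 42.2 in AA (log2 fold-change 2.56, SE 0.50, adjusted p = 0.00208). mcm5 rose by 2.46, mcm6 by 2.17 and mcm3, which had no count in 2 CTR libraries, by 4.01. mcm2 lost its call without AA replicate 2 (log2 fold-change 2.04, adjusted p = 0.0664), CTR replicate 2 (log2 fold-change 1.84, adjusted p = 0.0836) or CTR replicate 3 (log2 fold-change 1.79, adjusted p = 0.107). The sliding clamp pcna passed the adjusted p but not the 2-fold minimum (log2 fold-change 0.73, adjusted p = 0.013). Enzymes that supply deoxynucleotides had 5 of 9 members up-regulated (median 1.34), 3 without CTR replicate 3. Thymidine kinase tk1 had 3.21, 2.92 and 2.12 in CTR and 59.3, 35.2 and 63.3 in AA (log2 fold-change 4.18, SE 0.63, adjusted p = 0.000187), and the small subunit of ribonucleotide reductase, rrm2, had 37.8, 32.9 and 43.8 in CTR and 197, 145 and 134 in AA (log2 fold-change 2.05, SE 0.29, adjusted p = 9.72e-05). The large subunit rrm1 rose by 1.34. In tk1, rrm2 and rrm1 every AA library exceeded every CTR library.

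Of 53 tested sarcomere genes, 24 were up-regulated in AA and 4 down-regulated, with a median log2 fold-change of 1.26. Muscle filament genes are near-identical paralogs, and how the counting shared reads between them is not given in the sources used here, so values of single actin, myosin and troponin genes are uncertain. Thick filament genes had 6 of 9 members up-regulated and a median of 2.37, with 4 up-regulated without AA replicate 2, 5 without CTR replicate 2 or CTR replicate 3 and 6 without AA replicate 3. The myosin heavy chain, fast skeletal muscle-like gene, which lies outside the list, had 87.6, 78.1 and 173 in CTR and 559, 1017 and 1772 in AA (log2 fold-change 3.196, SE 0.33, adjusted p = 3.2e-06). mylpfa, the fast regulatory light chain, had 11.2, 11.7 and 27.9 in CTR and 106, 153 and 359 in AA (log2 fold-change 3.37, SE 0.43, adjusted p = 3.7e-05), and myom1a, a myomesin that crosslinks myosin at the M band, had 1.61, 4.38 and 1.41 in CTR and 55.03, 91.3 and 84.4 in AA (log2 fold-change 5.001, SE 0.69, adjusted p = 8.38e-05). In all of these the AA libraries were above CTR, and AA replicate 1 was the lowest of AA. The same order held for the actin, alpha skeletal muscle 2-like gene, with 149, 149 and 210.4 in CTR and 849, 1374 and 1842 in AA (log2 fold-change 2.94, SE 0.24, adjusted p = 1.85e-07).

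Thin filament genes had 6 of 16 members up-regulated and 1 down-regulated (median 0.82). Fast troponin subunits were among the rises, with 32.9, 43.1 and 39.3 in CTR and 95.2, 179.9 and 218 in AA for the inhibitory subunit tnni2b.1 (log2 fold-change 2.03, SE 0.30, adjusted p = 0.000184). TNNT3, a fast troponin T, rose by 2.89, and tnnc2, the fast calcium-binding subunit, by 4.86 from 0 to 2.41 normalized counts in CTR. Rises were not limited to fast types. The slow-type troponin gene tnnc1b rose by 2.13, but not without CTR replicate 2 (log2 fold-change 1.83, adjusted p = 0.058). The slow-type myosin gene myh7bb rose by 2.11, but not without AA replicate 2, CTR replicate 2 or CTR replicate 3 (adjusted p = 0.0558 to 0.163). The 1 thin filament gene that fell was tpm2, a tropomyosin of slow and smooth muscle in mammals, with 2804, 3279 and 3023 in CTR and 1327, 1455 and 942 in AA (log2 fold-change −1.28, SE 0.16, adjusted p = 2.19e-05). Here every AA library lay below every CTR library. Of tropomyosins outside the list, TPM4 (log2 fold-change 1.12) and the tropomyosin alpha-1 chain gene (1.07) were up-regulated.

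Z disc and titin genes had 12 of 28 members up-regulated and 3 down-regulated (median 1.18), but 6 were up-regulated without AA replicate 2. The titin gene ttn.1 had 32.1, 30.7 and 28.3 in CTR and 182, 254 and 359 in AA (log2 fold-change 3.06, SE 0.26, adjusted p = 3.24e-07), and the second titin gene, ttn.2, rose by 1.51 (adjusted p = 2.94e-05). desma, the desmin of the intermediate filaments that tie Z discs together, had 109, 107 and 148 in CTR and 298, 304 and 534 in AA (log2 fold-change 1.54, SE 0.24, adjusted p = 0.000245). klhl40b and klhl41b, which stabilize thin filament proteins and nebulin, rose by 2.61 and 3.56. Titin and desmin levels of AA did not overlap those of CTR. The falls were those of ankrd2 and ankrd1a, muscle ankyrin repeat proteins that respond to stretch and stress, and of pdlim7. ankrd2 had 129, 123 and 177 in CTR and 35.98, 41.3 and 28.1 in AA (log2 fold-change −1.93, SE 0.28, adjusted p = 0.000118), with no overlap, and ankrd1a had 339.8, 624 and 518 in CTR and 184, 205 and 274 in AA (log2 fold-change −1.23, SE 0.26, adjusted p = 0.00369). pdlim7 lost its call without AA replicate 1, CTR replicate 2 or CTR replicate 3 (adjusted p = 0.0757 to 0.122). Tested against IGF1, 18 of the 53 sarcomere genes were higher in AA and 1, ankrd2, was lower (log2 fold-change −1.96, adjusted p = 0.000128).

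Excitation and calcium handling, a list that also holds muscle creatine kinases, had 8 of 19 members up-regulated, none down-regulated (0 at an unadjusted p under 0.05 in edgeR) and a median of 1.21. The 8 include srl and SRL, names that differ only in letter case and were counted apart. The muscle creatine kinases, which regenerate ATP at the sarcomere, led. ckmb had 42.6, 37.2 and 58.7 in CTR and 205, 344 and 373 in AA (log2 fold-change 2.67, SE 0.32, adjusted p = 1.9e-05) and ckma had 19.3, 25.6 and 15.9 in CTR and 95.2, 114 and 141 in AA (log2 fold-change 2.49, SE 0.37, adjusted p = 0.000188). The 1 other tested contig of ckma had a log2 fold-change of 0.11 and was not called, but ckma kept its call with counts summed per name. cacng1a, a subunit of the calcium channel of the transverse tubule, had 28.1, 22.6 and 25.1 in CTR and 76.2, 122 and 98.4 in AA (log2 fold-change 1.99, SE 0.32, adjusted p = 0.000387), and bin1b, which shapes these tubules, rose by 1.44. None of these 4 genes had overlapping groups. Of the 8, 4 were called without CTR replicate 1, and 5 without AA replicate 2 or CTR replicate 2. Those lost without CTR replicate 1 were srl, SRL, MUSK and chrng.

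Myogenic and MEF2 factors, a list that holds the myostatin gene mstnb besides transcription factors, had 2 of 18 members up-regulated and a median of 0.67. myog, the factor of terminal differentiation, had 274, 209 and 322 in CTR and 432, 568 and 738 in AA (log2 fold-change 1.05, SE 0.19, adjusted p = 0.00123). AA lay above CTR in every library, but the rise dropped below 2-fold without AA replicate 3 (log2 fold-change 0.91, adjusted p = 0.00476) or CTR replicate 2 (log2 fold-change 0.91, adjusted p = 0.0106). mstnb, a myostatin gene and thus a member that restrains muscle growth, had 95.6, 68.6 and 64.4 in CTR and 254, 204 and 112 in AA (log2 fold-change 1.39, SE 0.32, adjusted p = 0.00754), and was not called without CTR replicate 3 (log2 fold-change 1.27, adjusted p = 0.0569). myf5, a determination factor, and pax7b, a marker of satellite cells, passed the adjusted p but not the 2-fold minimum, with log2 fold-changes of 0.999 and −0.84 (adjusted p = 0.0115 and 0.0288). myod1 did not pass (log2 fold-change 0.67, adjusted p = 0.173).

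Fusion genes had 3 of 16 members up-regulated (median 0.45), and 1 without CTR replicate 2. marcksb, an actin-binding substrate of protein kinase C, had 37.8, 21.9 and 38.9 in CTR and 248, 179 and 49.2 in AA (log2 fold-change 2.36, SE 0.38, adjusted p = 0.000348). Its AA libraries were all above CTR, but AA replicate 3 was close to the highest CTR library. cdh15, the M-cadherin, had 108, 67.2 and 103 in CTR and 193, 238 and 189.8 in AA (log2 fold-change 1.17, SE 0.22, adjusted p = 0.00176), and was at the 2-fold limit without CTR replicate 2 (log2 fold-change 0.99, adjusted p = 0.0136). mymk, the myomaker protein required for fusion, had 84.3, 53.3 and 62.2 in CTR and 138, 148 and 134 in AA (log2 fold-change 1.08, SE 0.26, adjusted p = 0.00942), and lost its call without AA replicate 2 (log2 fold-change 1.004, adjusted p = 0.0596), CTR replicate 2 (log2 fold-change 0.95, adjusted p = 0.0532) or CTR replicate 3 (log2 fold-change 1.02, adjusted p = 0.0568).

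**Figure D2:**
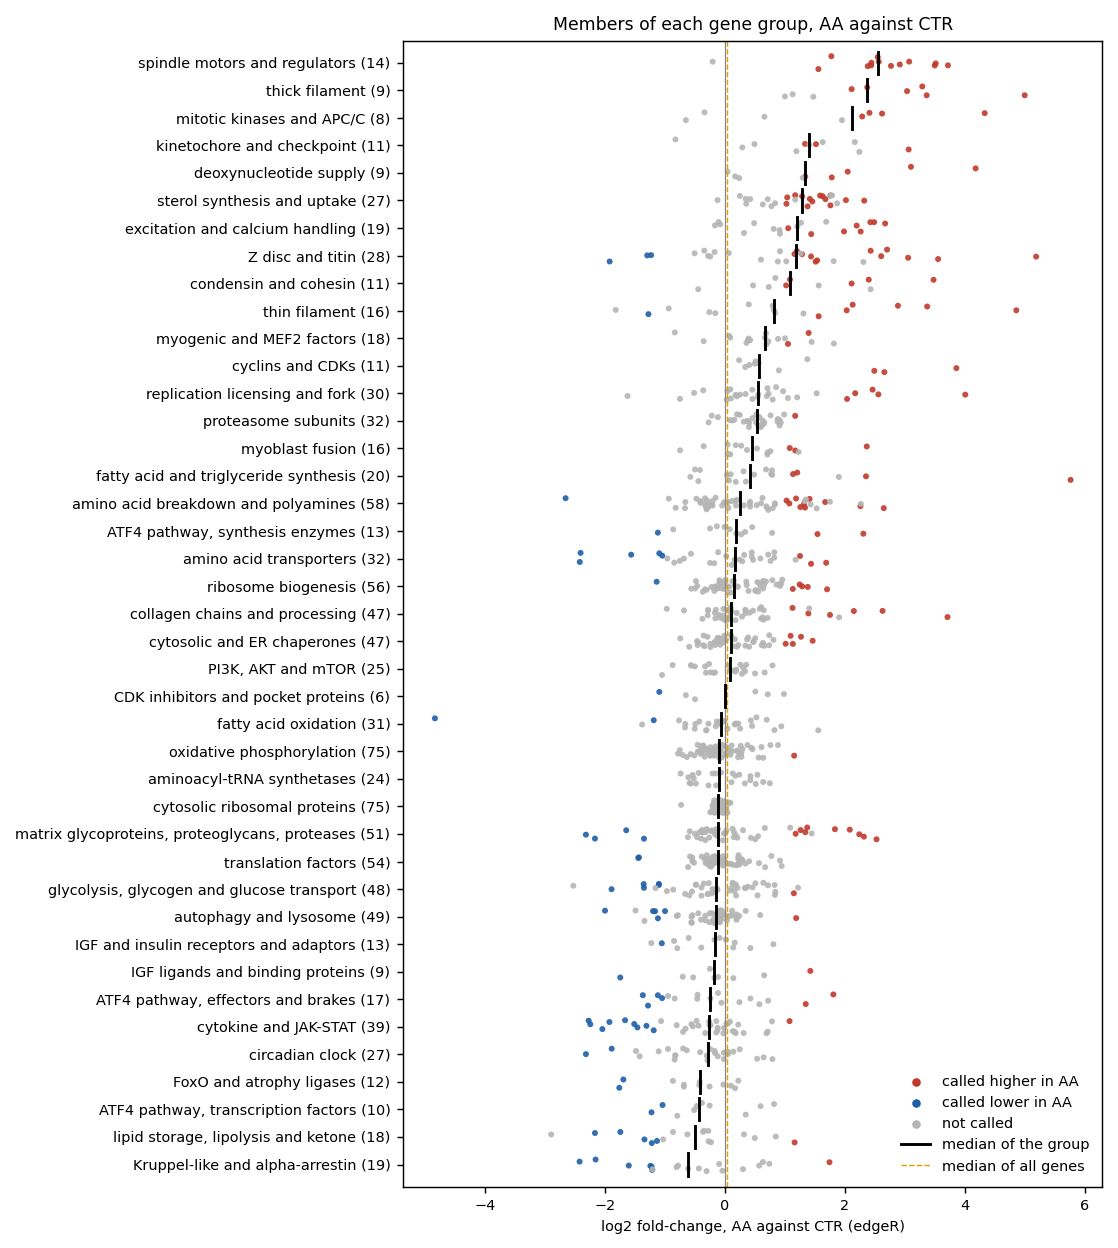
Log2 fold-change of AA against CTR for every tested member of 41 gene groups, 1 point per gene, ordered by the median of the group (black bar, with the median of all genes as a dashed line), with the number of members in brackets and genes past both thresholds in color. Spindle, thick filament and mitotic kinase genes stand furthest to the right, with medians of 2.56, 2.37 and 2.12, and Kruppel-like and alpha-arrestin genes furthest to the left, with −0.62.

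Sterol synthesis genes rose in part. Cells make cholesterol from acetyl-CoA through mevalonate, squalene and lanosterol, under control of SREBP2. Of 27 tested genes for synthesis and uptake, 14 were up-regulated and none was down-regulated (0 at an unadjusted p under 0.05 in edgeR), 26 had a log2 fold-change above 0, and the median was 1.29. hmgcra, the rate-limiting HMG-CoA reductase, had 90.8, 45.3 and 66.5 in CTR and 315, 191 and 169 in AA (log2 fold-change 1.76, SE 0.30, adjusted p = 0.000587). fdps, which makes farnesyl diphosphate, had 106, 82.5 and 71.1 in CTR and 375, 203 and 260.1 in AA (log2 fold-change 1.68, SE 0.27, adjusted p = 0.000446), and lss, which closes the lanosterol ring, had 42.6, 19.7 and 19.1 in CTR and 159, 109.6 and 141 in AA (log2 fold-change 2.32, SE 0.41, adjusted p = 0.000824). AA was above CTR in each of them. acat2, which condenses the first acetyl-CoA units, rose by 1.76, hmgcs1, the HMG-CoA synthase, by 1.38, dhcr7, a reductase of the last steps, by 1.63 and insig1, an anchor of SREBP, by 1.46. The regulator srebf2 itself (log2 fold-change 0.25, adjusted p = 0.602) and insig2 (log2 fold-change −0.13, adjusted p = 0.789) were not differentially expressed. The median level of the group, as the log2 difference from the CTR mean, was 1.66, 1.097 and 0.64 in AA replicates 1, 2 and 3 and 0.34, −0.10 and −0.29 in CTR, so replicate 1 was the highest of both groups. The number up-regulated was 14 without AA replicate 3, but 7 without CTR replicate 3 and 9 without AA replicate 1. Against IGF1, 6 of the 27 were higher in AA and none lower (0 at an unadjusted p under 0.05 in edgeR and 0 in DESeq2).

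**Figure D3:**
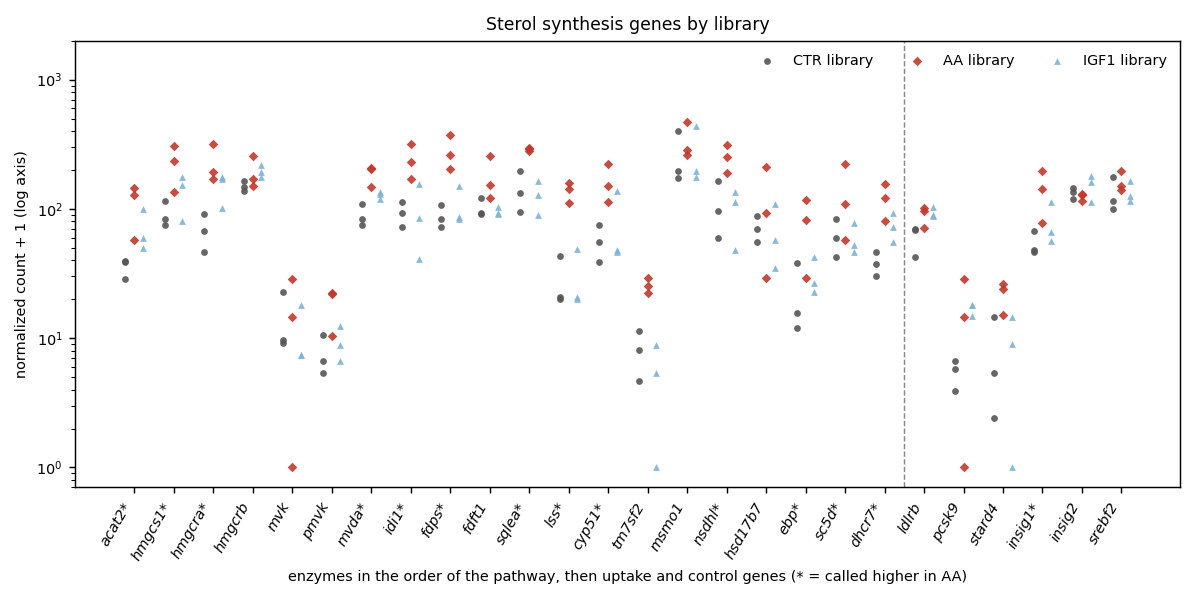
Normalized count plus 1 (log axis) of 26 sterol genes in every library, with the enzymes in the order of the pathway from acat2 to dhcr7 and uptake and control genes to the right of the dashed line, and an asterisk for the 14 genes up-regulated in AA. For lss the 3 AA libraries lie at 110 to 159 normalized counts and the CTR libraries at 19.1 to 42.6, while srebf2 and insig2 overlap, and points at 1 are counts of 0.

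Fatty acid and triglyceride synthesis had 4 of 20 listed members up-regulated and none down-regulated (2 were lower at an unadjusted p under 0.05 in edgeR, median 0.42). The list does not hold agpat9l, an acyltransferase gene, which was down-regulated (log2 fold-change −1.93). aclya, the ATP citrate lyase that makes cytosolic acetyl-CoA, had 1.61, 1.46 and 0.354 in CTR and 69.8, 39.9 and 70.3 in AA (log2 fold-change 5.77, SE 0.74, adjusted p = 3.57e-05), from 5 raw counts in the CTR libraries together. scd, the desaturase that makes oleic acid, had 68.3, 40.2 and 34.7 in CTR and 284, 260.4 and 148 in AA (log2 fold-change 2.35, SE 0.30, adjusted p = 3.31e-05). mid1ip1b, an activator of acetyl-CoA carboxylase, rose by 1.14, and acaca, the carboxylase, by 1.205, though the latter was not called without CTR replicate 3 (log2 fold-change 1.17, adjusted p = 0.0526). Both aclya (log2 fold-change 2.600, adjusted p = 0.00862) and scd (log2 fold-change 1.89, adjusted p = 0.000403) were higher in AA than in IGF1.

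Lipid storage and lipolysis had 5 of 18 members down-regulated, 1 up-regulated (lpl) and a median of −0.50. plin2, which coats lipid droplets, had 2819, 3352 and 3303 in CTR and 817, 728 and 534 in AA (log2 fold-change −2.17, SE 0.15, adjusted p = 3.71e-08). angptl4, an inhibitor of lipoprotein lipase induced by fasting, had 6909, 6693 and 6602 in CTR and 3206, 2963 and 3157 in AA (log2 fold-change −1.14, SE 0.10, adjusted p = 3.98e-07), and fabp11a, a fatty acid-binding protein gene, had 1514, 2449.9 and 1869 in CTR and 811, 808 and 675 in AA (log2 fold-change −1.35, SE 0.20, adjusted p = 0.000135). Groups of these 3 genes did not overlap. pdk3b, a kinase that shuts pyruvate dehydrogenase, fell by 1.22, though only 1 of its 2 other contigs was lower in AA, and the lipase cofactor ABHD5 by 1.75, the latter not without AA replicate 2 (log2 fold-change −1.54, adjusted p = 0.0596). lpl, the lipoprotein lipase, rose by 1.16 but lost its call without AA replicate 2, CTR replicate 2 or CTR replicate 3 (adjusted p = 0.0753 to 0.385). Among 31 fatty acid oxidation genes (median −0.08, or 0.07 with library size only), 2 fell (6.45%, against 2.90% of all genes). cpt1b, the muscle form of the enzyme that admits long-chain fatty acids into mitochondria, had 152 raw counts in CTR and 2 in AA, a 29.2-fold lower level with a 95% interval of 7.95 to 244 that covers counting error only. The other was acad11 (log2 fold-change −1.19, adjusted p = 0.0101), not called without AA replicate 2 (log2 fold-change −0.91, adjusted p = 0.101).

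Of 48 glycolysis, glycogen and glucose transport genes, 5 were down-regulated and 1 was up-regulated (10.4% and 2.08%, against 2.90% and 4.06% of all genes, median −0.16). pfkfb4b, which sets the level of the glycolytic activator fructose 2,6-bisphosphate, had 541, 477 and 512 in CTR and 197, 126 and 56.2 in AA (log2 fold-change −1.89, SE 0.23, adjusted p = 2.43e-05). ugp2b, which makes UDP-glucose, had 593, 864 and 765 in CTR and 279, 313 and 267 in AA (log2 fold-change −1.36, SE 0.16, adjusted p = 1.99e-05), and gfpt2, the entry enzyme of the hexosamine pathway, fell by 1.35. All AA libraries were below CTR for the 3 genes. The one rise was that of rpe, of the pentose phosphate pathway (log2 fold-change 1.15, adjusted p = 0.0142), which was not called without CTR replicate 2 (adjusted p = 0.0753) or CTR replicate 3 (adjusted p = 0.0606). Oxidative phosphorylation had 1 of 75 listed nuclear genes called (1.33%, against 6.96% of all genes), cox4i1l (log2 fold-change 1.15, adjusted p = 0.00217), and a median of −0.11, or 0.04 with library size only. An entry under a full name and not counted, ATP synthase F(0) complex subunit C3, was up-regulated (log2 fold-change 1.28). Tested against IGF1, 7 glycolysis genes were lower in AA and none higher (0 at an unadjusted p under 0.05 in edgeR and 0 in DESeq2).

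Cells short of amino acids make the factor ATF4, which turns on genes of amino acid supply and stress. Among 10 transcription factors of the ATF4 pathway, 2 were down-regulated and the median was −0.43. atf4a itself had 3705, 4290.3 and 4031 in CTR and 2356, 2355 and 2292 in AA, below CTR in every library and past the adjusted p but not the 2-fold minimum (log2 fold-change −0.798, SE 0.11, adjusted p = 6.51e-05). cebpb, a partner of ATF4, had 305, 696 and 631 in CTR and 174, 264 and 274 in AA (log2 fold-change −1.23, SE 0.26, adjusted p = 0.00369), and nupr1b, a stress cofactor, had 4748, 4795 and 4524 in CTR and 2552, 2053 and 2327 in AA (log2 fold-change −1.04, SE 0.11, adjusted p = 5.42e-06). Without AA replicate 2, nupr1b was just under 2-fold (log2 fold-change −0.98, adjusted p = 0.000149). The stress targets ddit3 (log2 fold-change −0.47, adjusted p = 0.0211) and trib3 (log2 fold-change −0.84, adjusted p = 0.000337) were lower by less than 2-fold. Of 17 effectors and brakes, 4 were down-regulated and 2 up-regulated, but the number down-regulated was 1 without CTR replicate 2 or CTR replicate 3 and 2 without AA replicate 2 or IGF1 replicate 3, and 1 with library size only. The number up-regulated was 1 without AA replicate 2, any 1 CTR library, IGF1 replicate 1 or IGF1 replicate 3. DDIT4L, an inhibitor of mTORC1 in mammals, was one that rose, with 17.7, 22.6 and 17.7 in CTR and 76.2, 66.95 and 56.2 in AA (log2 fold-change 1.81, SE 0.34, adjusted p = 0.00175). The falls were those of CASTOR1, ppp1r15a, eif4ebp3 and gadd45aa, and the other rise was that of vldlr. Each of the falls, and the rise of vldlr, lost its call when 1 or another library was left out.

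Enzymes of amino acid synthesis had 2 of 13 members up-regulated and 1 down-regulated (median 0.19). asns, the asparagine synthetase and a textbook ATF4 target, had 681, 812 and 728 in CTR and 855, 673 and 872 in AA (log2 fold-change 0.08, SE 0.15, adjusted p = 0.802), and the groups overlapped. psph, the last enzyme of serine synthesis, rose, with 24.9, 31.4 and 35.4 in CTR and 80.4, 95.4 and 98.4 in AA (log2 fold-change 1.54, SE 0.30, adjusted p = 0.00192), and shmt1, the cytosolic serine hydroxymethyltransferase, rose by 2.31, but neither of its 2 other contigs was higher in AA, and with counts summed per name it was not called (log2 fold-change 0.69, adjusted p = 0.3705). cbsa, which channels homocysteine to cysteine, fell, with 880.3, 784 and 883 in CTR and 375, 418 and 379.6 in AA (log2 fold-change −1.12, SE 0.14, adjusted p = 2.11e-05). Tested against IGF1, 4 of the 13 were lower in AA, among them asns (log2 fold-change −1.02, adjusted p = 0.000137), and none was higher (0 at an unadjusted p under 0.05 in edgeR and 0 in DESeq2).

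Amino acid transporters had 5 of 32 members down-regulated and 3 up-regulated (15.6% and 9.38%, against 2.90% and 4.06% of all genes, median 0.16). slc38a5b, a sodium-coupled glutamine transporter, had the smallest adjusted p of the list, with 5925, 5561 and 5546 in CTR and 1357, 1076 and 738 in AA (log2 fold-change −2.41, SE 0.16, adjusted p = 2.17e-08). Its paralog slc38a5a had 2735, 2652 and 2406 in CTR and 1361, 1300.5 and 970.2 in AA (log2 fold-change −1.098, SE 0.16, adjusted p = 0.000135), and dropped below 2-fold without AA replicate 3 (log2 fold-change −0.96, adjusted p = 0.000777). In both genes every AA library was below every CTR library. slc3a2a, the heavy chain shared by several exchangers, fell by 1.57. The rises included slc6a6a, the taurine transporter, with 17.7, 17.5 and 24.8 in CTR and 46.6, 58.8 and 112 in AA (log2 fold-change 1.69, SE 0.40, adjusted p = 0.00907), and slc7a11, the cystine exchanger (log2 fold-change 1.43, adjusted p = 0.00601), which was at the 2-fold limit without AA replicate 3 (log2 fold-change 0.99, adjusted p = 0.0181). slc7a5, the leucine exchanger, did not pass (log2 fold-change 0.29, adjusted p = 0.46), and slc38a2 was lower by less than 2-fold (log2 fold-change −0.57, adjusted p = 0.0109). Without AA replicate 3, 3 transporters were down-regulated.

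None of 24 cytosolic aminoacyl-tRNA synthetase genes, which charge transfer RNA, was differentially expressed in AA at 2-fold (median −0.11, or 0.05 with library size only), with 3 higher and 7 lower at the adjusted p alone and 7 and 9 at an unadjusted p under 0.05 in edgeR. Their median in each library, as the log2 difference from the CTR mean, was −0.03, −0.15 and −0.20 in AA and 0.58, 0.69 and 0.63 in IGF1. Tested directly, 5 of the 24 were lower in AA than in IGF1 and none was higher (0 at an unadjusted p under 0.05 in edgeR and 0 in DESeq2), with a median of −0.65.

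Genes of amino acid breakdown and polyamine metabolism had 10 of 58 members up-regulated and 1 down-regulated (median 0.26). The 10 include dld (log2 fold-change 1.67), a symbol that in zebrafish names the Notch ligand deltaD, so it may not be a breakdown enzyme. odc1, the ornithine decarboxylase that starts polyamine synthesis, had 8.03, 8.03 and 7.78 in CTR and 59.3, 54.1 and 28.1 in AA (log2 fold-change 2.65, SE 0.45, adjusted p = 0.000564). The one fall was that of sat1a.2, the acetyltransferase that starts polyamine breakdown, with 1191, 964 and 1155 in CTR and 249.7, 148 and 105 in AA (log2 fold-change −2.66, SE 0.23, adjusted p = 3.5e-07). The 2 genes, on opposite sides of polyamine turnover, moved in opposite directions, each without overlap. gnmt, which disposes of excess methyl groups from methionine, had 222, 236 and 235 in CTR and 444, 591 and 752 in AA (log2 fold-change 1.32, SE 0.17, adjusted p = 5.42e-05), and oat, the ornithine aminotransferase, had 80.3, 98.6 and 96.9 in CTR and 182, 214 and 148 in AA (log2 fold-change 1.03, SE 0.20, adjusted p = 0.00181). oat was below 2-fold without AA replicate 2 (log2 fold-change 0.85, adjusted p = 0.0303) or CTR replicate 1 (log2 fold-change 0.95, adjusted p = 0.00888). The number up-regulated was 4 without AA replicate 2, 5 without CTR replicate 1 or CTR replicate 3 and 6 without AA replicate 1 or CTR replicate 2.

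Atrophy ligase and autophagy genes fell in part. Of 12 FoxO and atrophy ligase genes, 2 were down-regulated and the median was −0.43. fbxo32, the muscle ubiquitin ligase atrogin-1, had 243, 239 and 226 in CTR and 95.2, 67.6 and 42.2 in AA (log2 fold-change −1.698, SE 0.24, adjusted p = 0.000119), with AA replicate 3 at 6 raw counts and all AA libraries below CTR. fbxo21 fell by 1.77, but not without AA replicate 2 (log2 fold-change −1.44, adjusted p = 0.0775). The paralog fbxo25 (log2 fold-change −0.69, adjusted p = 0.0482) and the regulator foxo1a (log2 fold-change −0.69, adjusted p = 0.0458) passed the adjusted p only. Among 49 autophagy and lysosome genes, 5 fell and 1 rose (10.2% and 2.04%, against 2.90% and 4.06% of all genes, median −0.16). tfeb, the master regulator of lysosome genes, had 120.5, 147 and 159 in CTR and 61.4, 29.1 and 0 in AA (log2 fold-change −2.003, SE 0.38, adjusted p = 0.0018), with no count in AA replicate 3. tbc1d17, a Rab GTPase-activating protein gene, had 440.2, 450.4 and 477 in CTR and 224, 214 and 183 in AA (log2 fold-change −1.12, SE 0.16, adjusted p = 0.00012). The single rise was that of wipi1, which binds the forming autophagosome, with 44.98, 48.9 and 55.2 in CTR and 138, 101 and 105 in AA (log2 fold-change 1.19, SE 0.27, adjusted p = 0.00668). The number down-regulated was 2 without CTR replicate 1 or CTR replicate 3, 3 without AA replicate 2, AA replicate 3 or CTR replicate 2 and 2 with library size only. The autophagy receptor sqstm1 was lower by less than 2-fold (log2 fold-change −0.55, adjusted p = 0.0431).

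Proteasome subunits degrade the proteins that the ligases mark. Of 32 subunit genes, 29 had a log2 fold-change above 0 and the median was 0.54, with 15 higher and none lower at the adjusted p, though only psma3 passed the 2-fold minimum. The number past both was 5 without CTR replicate 2, 3 without AA replicate 1, 2 without AA replicate 2 and 7 with library size only. psma3, a subunit of the catalytic core, had 137, 155 and 166 in CTR and 332, 372 and 330.4 in AA (log2 fold-change 1.17, SE 0.18, adjusted p = 0.000186), and psma5 had 174, 182 and 163 in CTR and 358, 319 and 373 in AA (log2 fold-change 0.99, SE 0.17, adjusted p = 0.000605). All AA libraries of both genes were above CTR, and 21 of the 32 subunits had this order, against 16.6% of all genes.

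The 75 cytosolic ribosomal protein genes had log2 fold-changes from −0.73 to 0.09 and a median of −0.12. None passed the adjusted p in edgeR, 0 had an unadjusted p under 0.05 and DESeq2 called 0. With library size only their median was 0.04, so its sign depends on the scaling. Ribosome biogenesis genes had 5 of 56 members up-regulated and 1 down-regulated (8.93% and 1.79%, against 4.06% and 2.90% of all genes, median 0.15). The 5 include mycn, a transcription factor. npm1a, the nucleolar chaperone nucleophosmin, had 203, 279.6 and 274 in CTR and 559, 609 and 485 in AA (log2 fold-change 1.13, SE 0.18, adjusted p = 0.00033), and the kinase riok1, which matures the small subunit, fell, with 267, 241 and 259 in CTR and 119, 122 and 98.4 in AA (log2 fold-change −1.14, SE 0.21, adjusted p = 0.00113). The number up-regulated was 2 without CTR replicate 1 or CTR replicate 3 and 3 without AA replicate 2, AA replicate 3 or IGF1 replicate 3, but 10 with library size only. mycn, a MYC family factor, had 8.03, 21.9 and 17.7 in CTR and 38.1, 41.3 and 105 in AA (log2 fold-change 1.702, SE 0.47, adjusted p = 0.0221), and was not called without AA replicate 3 (log2 fold-change 1.31, adjusted p = 0.0555), CTR replicate 1 (log2 fold-change 1.41, adjusted p = 0.0793) or CTR replicate 3 (log2 fold-change 1.801, adjusted p = 0.0688). Among 54 translation factor genes, 2 fell (median −0.12, or 0.03 with library size only). This is 3.70% of them, close to the 2.90% down-regulated over all genes. eif4ba, which aids the helicase that unwinds mRNA leaders, had 568, 588 and 560.5 in CTR and 209.5, 203 and 232 in AA (log2 fold-change −1.45, SE 0.15, adjusted p = 5.41e-06), and eif2b2, a subunit of the exchange factor through which GCN2 acts, had 239, 301 and 316 in CTR and 93.1, 115 and 105 in AA (log2 fold-change −1.44, SE 0.22, adjusted p = 0.00025). The AA libraries of both lay below CTR.

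Of 47 genes of IGF, insulin and mTOR signalling, 1 was up-regulated and 2 were down-regulated (median −0.12), which is close to the share called over all genes (6.96%). None of 25 PI3K, AKT and mTOR genes was called at 2-fold (1 was higher and 3 were lower at an unadjusted p under 0.05 in edgeR), where akt1 was higher (log2 fold-change 0.79, adjusted p = 0.0148) and mtor did not pass (log2 fold-change 0.13, adjusted p = 0.734). The called genes encode secreted or adaptor proteins. igfbp1a, a binding protein that sequesters IGF and is induced by fasting, had 571, 810.3 and 692 in CTR and 220.1, 208 and 183 in AA (log2 fold-change −1.75, SE 0.20, adjusted p = 1.34e-05), without overlap. igfbp5a rose by 1.42, but not without AA replicate 2 (log2 fold-change 1.34, adjusted p = 0.0743), CTR replicate 2 (log2 fold-change 1.298, adjusted p = 0.0667) or CTR replicate 3 (log2 fold-change 1.49, adjusted p = 0.0538). irs2b, an adaptor of the insulin receptor, had 124, 133 and 196 in CTR and 67.7, 78.4 and 70.3 in AA (log2 fold-change −1.06, SE 0.28, adjusted p = 0.0179), and lost its call without AA replicate 1, AA replicate 2 or CTR replicate 3 (adjusted p = 0.0521 to 0.144).

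Matrix genes changed in both directions. Of 47 genes for collagen chains and their processing, 6 were up-regulated and none down-regulated (3 were lower at an unadjusted p under 0.05 in edgeR, median 0.10). These were minor chains, among them col18a1a, a basement membrane collagen, with 43.4, 44.5 and 51.6 in CTR and 112, 300.3 and 197 in AA (log2 fold-change 2.15, SE 0.31, adjusted p = 0.000118), and col10a1a, with 31.3, 62.1 and 175 in CTR and 258, 992 and 415 in AA (log2 fold-change 2.63, SE 0.45, adjusted p = 0.000725). col11a2 rose by 1.75. The abundant fibrillar chain genes col1a1a, col1a1b and col1a2 had log2 fold-changes of −0.04, −0.15 and 0.07 and did not pass. Of 51 genes for glycoproteins, proteoglycans and proteases, 9 rose and 4 fell (median −0.12, or 0.03 with library size only). cilp, a cartilage intermediate layer protein gene, had 1741, 989.9 and 1162 in CTR and 8085, 5419.7 and 5076 in AA (log2 fold-change 2.24, SE 0.25, adjusted p = 8.48e-06). fmoda, the fibromodulin that organizes collagen fibrils, had 474, 363 and 349 in CTR and 1712, 1255 and 1294 in AA (log2 fold-change 1.83, SE 0.16, adjusted p = 5.84e-07). postnb, a periostin, had 228, 96.4 and 93.4 in CTR and 656, 906 and 837 in AA (log2 fold-change 2.53, SE 0.31, adjusted p = 1.94e-05), and HAPLN1, the link protein of hyaluronan and proteoglycans, had 275, 191 and 159 in CTR and 1073, 776 and 794 in AA (log2 fold-change 2.08, SE 0.24, adjusted p = 1.39e-05). AA libraries exceeded all CTR libraries in these 4 genes, of which fmoda shares its assembled locus with a lumican-like name. Of the falls, thbs1b had 83.5, 207 and 241 in CTR and 31.7, 33.1 and 56.2 in AA (log2 fold-change −2.32, SE 0.45, adjusted p = 0.00208), and cemip, a hyaluronan-degrading protein gene, had 149, 134 and 155 in CTR and 50.8, 54.1 and 14.1 in AA (log2 fold-change −1.65, SE 0.37, adjusted p = 0.00631). All AA libraries of both genes lay below CTR. mmp14b, a membrane metalloprotease, was not differentially expressed (log2 fold-change 0.300, adjusted p = 0.113), and was higher in AA than in IGF1 (log2 fold-change 1.32, adjusted p = 1.81e-06).

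Cytokine and JAK-STAT genes had 9 of 39 members down-regulated and 1 up-regulated (23.1% and 2.56%, against 2.90% and 4.06% of all genes, median −0.26). The one rise, that of cntfr, a receptor of ciliary neurotrophic factor (log2 fold-change 1.08, adjusted p = 0.0177), was not called without AA replicate 2, CTR replicate 1 or CTR replicate 2 (adjusted p = 0.0559 to 0.121). The leptins lepb and lepa, hormones of energy status that in fish are made outside fat too, were among the falls. lepb had 1442, 1472 and 1497 in CTR and 258, 294 and 408 in AA (log2 fold-change −2.28, SE 0.18, adjusted p = 1.17e-07), and lepa had 125, 306 and 245 in CTR and 80.4, 45.99 and 28.1 in AA (log2 fold-change −2.05, SE 0.44, adjusted p = 0.00445), the latter not called without AA replicate 2 (log2 fold-change −1.85, adjusted p = 0.0509). irf7, a factor of the interferon response, had 114, 128 and 135 in CTR and 8.47, 29.8 and 56.2 in AA (log2 fold-change −2.25, SE 0.43, adjusted p = 0.00165). csf1a, a macrophage growth factor, had 341, 229 and 292 in CTR and 108, 112 and 77.3 in AA (log2 fold-change −1.46, SE 0.23, adjusted p = 0.000253), and cxcl8a, a chemokine, fell by 1.67. No AA library reached the CTR range in any of these genes. lepa, lepb and fabp11a also stand in the list of adipocyte markers, which summed to 3276 to 4421 normalized counts in CTR and 1315 to 1455 in AA. Of its other members lpl rose, while cidec, PPARG, cebpa and plin1 were not called and adipoq, the adiponectin gene, had no tested contig, and a part of adipocytes in these falls was not tested.

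Kruppel-like factor and alpha-arrestin genes fell in part. Of 19 listed Kruppel-like and alpha-arrestin genes, 6 were down-regulated and 1 was up-regulated (median −0.62). Kruppel like factor 10, an entry under its full name and not counted, was down-regulated too (log2 fold-change −1.06). The one rise, that of klf2a (log2 fold-change 1.74, adjusted p = 0.0202), was not called without AA replicate 2, CTR replicate 1 or CTR replicate 2 (adjusted p = 0.0533 to 0.157), and 4 genes were down-regulated without AA replicate 2. ARRDC4, an arrestin that takes glucose transporters from the membrane in mammals, had 901, 761 and 875 in CTR and 144, 148 and 211 in AA (log2 fold-change −2.43, SE 0.17, adjusted p = 2.76e-08). Its relative txnipb had 111, 91.3 and 95.5 in CTR and 29.6, 39.2 and 14.1 in AA (log2 fold-change −1.61, SE 0.32, adjusted p = 0.00224), klf9, a glucocorticoid-responsive factor in mammals, had 98.8, 115 and 104 in CTR and 23.3, 17.6 and 49.2 in AA (log2 fold-change −2.16, SE 0.45, adjusted p = 0.00326), and klf11b fell by 1.22. No AA library overlapped CTR here. Among 27 clock genes, 2 fell (7.41%, against 2.90% of all genes, median −0.29), the repressors bhlhe41, with 115, 149.7 and 150.3 in CTR and 19.05, 32.5 and 28.1 in AA (log2 fold-change −2.32, SE 0.31, adjusted p = 5.04e-05), and per2, with 67.5, 61.3 and 87.3 in CTR and 16.9, 18.9 and 28.1 in AA (log2 fold-change −1.89, SE 0.41, adjusted p = 0.00484). Without AA replicate 1, AA replicate 2 or CTR replicate 1, 4 clock genes fell.

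Chaperones of the endoplasmic reticulum had 5 of 47 members up-regulated in a list that also holds cytosolic chaperones (median 0.10). hspa5, the chaperone BiP, had 958, 917 and 1012 in CTR and 1998, 1939.6 and 1962 in AA (log2 fold-change 1.01, SE 0.11, adjusted p = 8.32e-06), at the 2-fold limit without AA replicate 1 (log2 fold-change 0.99, adjusted p = 4.47e-05) or CTR replicate 2 (log2 fold-change 0.98, adjusted p = 0.000136). pdia4, a disulfide isomerase, had 183, 147 and 144 in CTR and 385, 343 and 302 in AA (log2 fold-change 1.13, SE 0.18, adjusted p = 0.000419), dnajb11, a BiP cofactor, rose by 1.27 and sdf2l1, another, by 1.46. All 4 were above CTR in every AA library. Without AA replicate 1 or CTR replicate 2, 3 members of the list were up-regulated.

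To see which changes set amino acids apart from IGF1, AA was tested against IGF1 directly, since both share the CTR libraries when compared to them. Of the 13162 genes, 360 were higher in AA (2.74%) and 266 were lower (2.02%), or 584 and 160 with library size only. Among the 12 largest rises in AA against CTR, those of tmsb (log2 fold-change 4.38, adjusted p = 6.9e-06), mylpfa (log2 fold-change 3.19, adjusted p = 0.000102) and kpna2 (log2 fold-change 2.64, adjusted p = 7.31e-05) were the largest differences from IGF1, and cd248b did not pass (log2 fold-change 0.16, adjusted p = 0.876). Among the falls, the interleukin-1 receptor type 2-like gene (log2 fold-change −2.69, adjusted p = 3.64e-05) and slc38a5b (log2 fold-change −2.02, adjusted p = 2.22e-07) were lower in AA than in IGF1. By contrast lepb (log2 fold-change 0.19, adjusted p = 0.624), ctdsp2 (log2 fold-change −0.12, adjusted p = 0.903), fbxo32 (log2 fold-change −0.26, adjusted p = 0.624) and igfbp1a (log2 fold-change −0.29, adjusted p = 0.479) did not pass in this test, which does not show that the treatments act alike on them. The median level of the thick filament group against the CTR mean was 0.92, 2.78 and 2.96 on the log2 scale in AA replicates 1 to 3 and −0.76, −0.15 and 0.49 in the IGF1 libraries. For spindle genes these medians were 2.41, 2.503 and 2.35 in AA and 1.596, 0.50 and 1.21 in IGF1. Neither group overlapped between AA and IGF1. Kruppel-like and alpha-arrestin genes had −0.58, −0.63 and −0.73 in AA and −0.81, −0.43 and −0.46 in IGF1, which overlap.

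**Figure D4:**
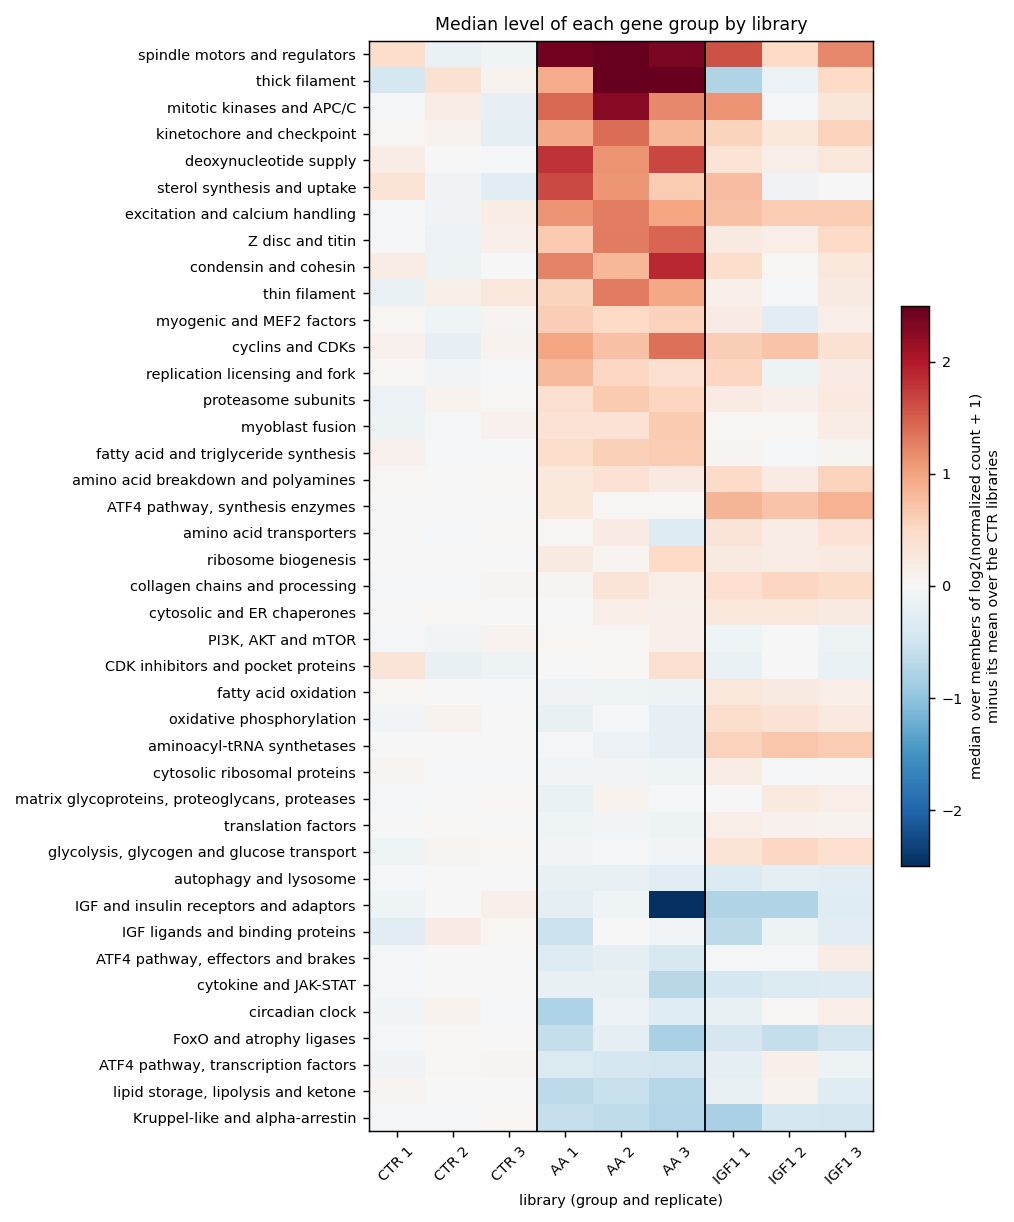
Median over the members of each gene group of log2(normalized count + 1) minus its mean over the CTR libraries (color scale from −2.5 to 2.5, beyond which colors saturate), for 41 groups (rows) in 9 libraries (columns). Spindle, thick filament and deoxynucleotide genes are high in all 3 AA libraries, and aminoacyl-tRNA synthetases are high in the IGF1 libraries (0.58 to 0.69) but not in AA (−0.20 to −0.03).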

How the data were processed

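RNA-seq of 9 libraries was used, 3 each of CTR, AA and IGF1. Per the methods of the study, reads were assembled with Trinity, contigs were named by BLASTx against 3 fish proteomes of Ensembl 89, and the submitters' processing notes name FastQC 0.11.8, Trimmomatic, Bowtie2 and DESeq2. The counting tool and its treatment of reads shared by similar contigs are not given in the sources used here. The deposited raw counts are whole reads per contig. The deposited normalized counts, a signal the authors obtained by dividing counts by a size factor per library, were used for the values printed by library.

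Contigs whose raw counts averaged at least 10 were tested in edgeR 4.0.16 (quasi-likelihood, TMM normalization, group as the only term, R 4.3.3) over all 9 libraries, and p-values were adjusted over 35575 contigs by the Benjamini-Hochberg method. Calls required an adjusted p not above 0.05 and a log2 change of 1 or more either way, and up- and down-regulated (rose, fell) are used of called genes. The code was checked on simulated data. Genes named are the 12 largest rises and falls with a group mean of 100 or more and no overlap, the 5 smallest adjusted p in each direction, up to 4 called members per role of a list with its defining members, and genes discussed in the study. Further list members, and the families in the closing section, were chosen after their values were seen. The members and lists were chosen with earlier results of these data known. Lists were matched by gene symbol, so genes carried under a full name can be missing from them. The gene eif1ad, which shares its first letters with a translation factor but is another gene, was left out of that list. Values of 2 genes that these rules take in are not reported here. Alternatives were median-of-ratios and library-size scaling, DESeq2 1.42.0, other filters, AA and CTR libraries alone, a replicate block, counts summed per name, leaving out each library, and, added after seeing the data, thinning to the shallowest library and the newer quasi-likelihood method. No column of per-sample values was left unused.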

Additional observations from a re-analysis of the deposited data

How the results depend on the processing

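Of 232 called genes followed across settings (the 206 called list members and 26 others), not all of them named above, none changed direction (krt5 and insig2, which were not called, crossed 0), 106 kept their call under every setting and 126 lost it under 1 or more, 93 of them with all libraries thinned to the shallowest, which also gave 574 differentially expressed genes (312 up-regulated) and 122 list members against 206. Leaving out AA replicate 2 or CTR replicate 3 lost 56 each and CTR replicate 2 lost 51. The total of 916 ranged from 630.0 (without CTR replicate 3) to 941 when libraries were left out in turn, and that of list members from 153 to 209. With no fold-change minimum, 1725 genes passed, 870.0 higher and 855 lower. DESeq2 called 1011 genes, summing counts per name 822. Against IGF1, library-size scaling gave 584 higher and 160.0 lower genes. The median of spindle genes (2.56) was 2.71 with library size only, 2.66 with the replicate block, 2.45 when thinned and 2.36 to 2.87 when libraries were left out. That of excitation genes (1.21) was 1.37 with library size only, 1.04 with the newer method, 1.46 when thinned and 1.08 to 1.47 when libraries were left out. The causes were not tested. With replicate number as a block, 925 genes were called. All 9 same-numbered pairs of libraries correlated above 0 (r 0.03 to 0.23, and 0.04 to 0.13 between AA and CTR), 4 of them above 0.1. Of 18 different-numbered pairs, 12 were below 0. Levels were taken relative to the group mean, which ties these signs to those of the same-numbered pairs, so they are not separate evidence. Since not every pair was above 0.1, the numbers were not taken as a pairing, and whether they mark shared cultures is not known. Of 779 medians of gene groups over these settings, 19 changed sign, and all of these were under 0.18 in size in the main result. In AA replicate 3, with 1366043 counts, 1 raw count equals 7.03 normalized counts, which limits what it shows of low genes.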

Other observations

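Some gene families without a list of their own above were looked at after their values were seen, though single members may also stand in a list above. They were taken whole by their symbols, so entries under a full name can be missed, and they carry no test as groups. Their counts are to be read against 4.06% up-regulated and 2.90% down-regulated over all genes. Of 6 keratin genes, krt8 and krt18a.1 were the only ones called, both down-regulated, and krt5 had a log2 fold-change of 0.02. Of 15 tubulin genes taken by symbol, tubb5 and tubb2b were up-regulated. Among entries under a full name, not counted here, the tubulin alpha-1A chain (log2 fold-change 1.18), alpha-1B chain (1.09) and alpha chain (1.09) were up-regulated too. tubb2b had normalized counts of 236, 199 and 300.2 in CTR and 641, 578 and 710.1 in AA (log2 fold-change 1.35, SE 0.17, adjusted p = 2.26e-05), and no AA library overlapped CTR, but it was below 2-fold with counts summed per name (log2 fold-change 0.902, adjusted p = 0.00427). Of 26 importin and exportin genes 2 were up-regulated, led by kpna2, and 1 was down-regulated, and of 32 genes of the nuclear lamina, envelope and pore 3 rose and none was called lower (median log2 fold-change 0.31). lmnb2, a B-type lamin, had 5.62, 5.84 and 6.37 in CTR and 55.03, 37.2 and 28.1 in AA (log2 fold-change 2.77, SE 0.48, adjusted p = 0.000769).

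Of 50 genes of FGF, EGF and PDGF signalling with their immediate early and feedback genes, 6 rose and none was called lower (median 0.24). The feedback inhibitor spry1 had 151, 118 and 108 in CTR and 370.4, 359.8 and 344 in AA (log2 fold-change 1.51, SE 0.20, adjusted p = 4.08e-05), and the early response factor egr1 had 36.9, 28.5 and 41.7 in CTR and 150.3, 165 and 218 in AA (log2 fold-change 2.24, SE 0.30, adjusted p = 5.96e-05). spry4 rose by 1.11 (not past 2-fold without CTR replicate 2, log2 fold-change 0.97, adjusted p = 0.0062). Both spry1 (log2 fold-change 2.102, adjusted p = 2.86e-06) and egr1 (log2 fold-change 1.21, adjusted p = 0.012) were higher in AA than in IGF1. Of 23 Wnt pathway genes 2 rose and 2 fell. The falls were those of rspo4, an R-spondin gene (log2 fold-change −2.51), and of the secreted inhibitor dkk2. dkk2 had 325, 366 and 378 in CTR and 91.01, 109.6 and 141 in AA (log2 fold-change −1.73, SE 0.20, adjusted p = 1.25e-05), with every AA library below CTR. Of 56 genes of BMP, activin and TGF-beta signalling 2 rose and 1 fell, no larger a share than that called over all genes (6.96%). Among them bmp3 had 20.1, 10.2 and 14.9 in CTR and 78.3, 37.9 and 91.4 in AA (log2 fold-change 2.07, SE 0.45, adjusted p = 0.00491).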
